A study of Homo sapiens with 50 samples.

Results

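The comparison described here set directly irradiated cells of the line labelled H1299shRAD9 against the bystander cells that shared a dish with them, in dishes where no bystander response was seen. The members were chosen by their labels as the 5 arrays of H1299shRAD9 DBN (direct, bystander negative) and the 5 arrays of H1299shRAD9 BN (bystander negative), 10 of the 50 arrays of the series. H1299 is a human non-small cell lung carcinoma line. H1299shRAD9 was derived from it as stable transfectants, infected with a retroviral vector (pSUPER.retro.puro.siRNA) that expresses a short hairpin RNA against RAD9, so both groups of the comparison carried this hairpin construct by their labels. Dishes were exposed to 1 Gy of 4He ions, alpha particles of 125 keV per micron, and RNA was taken 4 h later. The outer Mylar surface of a dish was thin enough for the particles to reach its cells, which gave DBN, and the other was too thick, which gave BN. Dishes were sorted by the study on micronuclei, small nuclear bodies that hold broken or lost chromosome material, counted in binucleate cells from the same surfaces. Nonresponding dishes were those whose bystander cells had few of them, so the groups were selected on that outcome. The other groups used here were the unirradiated H1299shRAD9 arrays (CTL), the responding dishes of H1299shRAD9 (DBP and BP) and the nonresponding dishes of parental H1299 (DBN and BN), with 5 arrays each.

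A bystander effect is a response in cells that were not hit themselves but shared medium with cells that were. RAD9 is a subunit of the 9-1-1 clamp, a ring loaded onto damaged DNA that helps to activate the kinase ATR and the checkpoints that halt the cell cycle. Cells damaged in G2 are kept from mitosis chiefly by restraint of the kinases PLK1 and Aurora A and of the cyclin B kinase. Many genes used in G2 and mitosis are transcribed together through the CHR promoter element (bases TTTGAA) and nearby CCAAT boxes, which bind complexes that repress or activate them over the cell cycle.

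RAD9A, the target of the hairpin, was read by 1 feature (A_24_P21715, chr11:67165480-67165539, hg19), which passed the background mark on each of the 10 arrays. Levels, given throughout as log2 of the signal over the median of the array, lay between 3.06 and 3.75 for RAD9A in DBN and between 2.86 and 3.44 in BN, a mean difference of 0.113 (exact paired permutation test, 2-sided p = 0.3125, where 5 pairs cannot reach 0.05). In nonresponding dishes of parental H1299 the mean was 3.24, and with both surfaces of a dish averaged the arrays labelled H1299shRAD9 differed from it by -0.0094 (exact permutation test over 252 splits of 5 against 5 dishes, 2-sided p = 0.952). In unirradiated cells RAD9A lay between 2.85 and 3.32 in H1299shRAD9 and between 3.25 and 3.6 in H1299, a difference of -0.30 (exact permutation test over 252 splits, 2-sided p = 0.0159). Whether the difference between the lines changed with irradiation was not tested. RAD9 protein is not measured by these arrays. The paper reports from a Western blot that it was reduced in the transfected clones relative to untransfected H1299. The 10 arrays had between 58.51 and 73.05% of probes well above background, and between 9 and 59 saturated probes, and neither measure showed a difference by surface beyond the spread of the pairs (exact paired permutation tests, p = 0.625 for each). The markers of the line VIM, CDH2, ZEB1, KRT8 and KRT18 were well above background on all 10 arrays, but FN1 on 1 of 10. CDH1 and EPCAM were on none. Of 13 markers of other cells, PTPRC, CDH5, DCN, SFTPC and SCGB1A1 had a feature well above background on all 10 arrays, and the tested markers of that list passed no threshold between the surfaces. In 4 of the 5 pairs DBN and BN lay on neighbouring positions of the same slide, with BN always first, so position and surface cannot be told apart there. The pair of replicate 5 lay on different slides.

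Directly irradiated cells had less RNA of a compact set of genes for mitosis, and no gene was significantly higher than in the bystander cells. Of 12171 features tested, 17 were lower in DBN (limma, blocked on the replicate number, unadjusted p under 0.006 and Benjamini-Hochberg false discovery rate under 10%), which is 0.140% of those tested, and 0 were higher. They stand for 16 named genes and 1 feature without a gene. The falls ran from -0.75 to -1.38 on the log2 scale, or from 1.68-fold to 2.60-fold, and all 17 were lower in each of the 5 pairs. Of all features tested, 295 (2.42%) were lower in every pair and 133 were higher in every pair. For 16 of the 17 the highest DBN array was below the lowest BN array, where 59 of all features tested were separated in this way and 4 in the opposite way. At an unadjusted p under 0.05 there were 322 features, 233 of them lower in DBN. Among those at p under 0.006, 83 were lower and 11 higher. Over all features the median difference was -0.015 and 56.6% were lower. Since RNA came from whole surfaces, fewer cells in late G2 and mitosis and less RNA per cell cannot be told apart. The volcano plot shows how far these features lay from the rest.

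**Figure D1:**
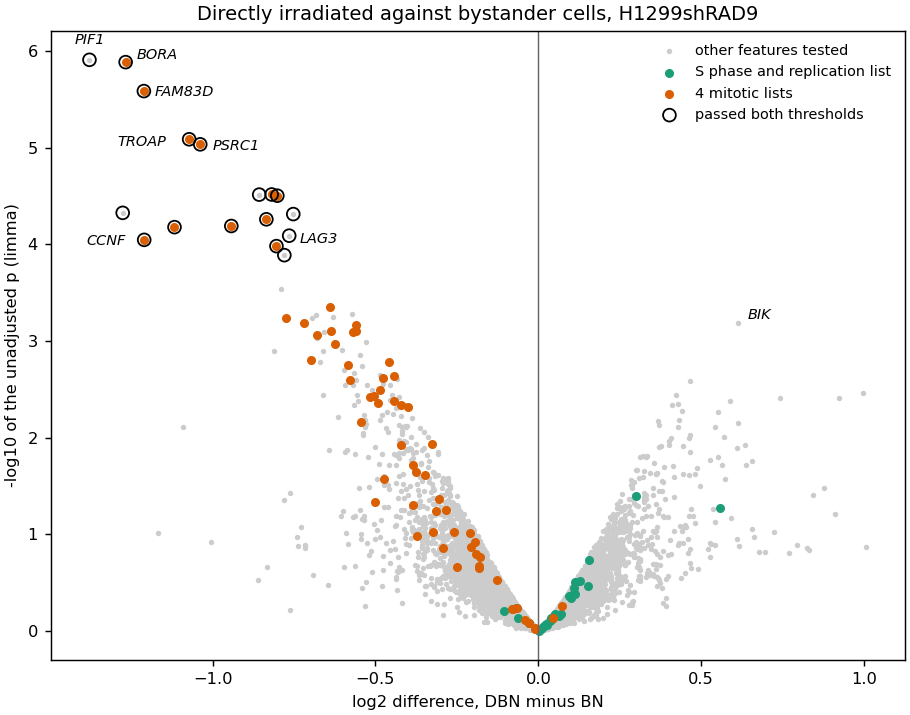
Each point is 1 of 12171 features, with its log2 difference between DBN and BN (x axis) and the -log10 of its unadjusted limma p (y axis). The 17 circled features passed both thresholds and lie at the upper left, among genes of the 4 mitotic lists (orange). Genes for S phase (green) lie close to 0 or to the right of it.

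In the mitotic entry list, 4 of the 16 genes tested fell: BORA, FAM83D, AURKA and CCNF. BORA, the cofactor with which Aurora A activates PLK1, was at log2 levels of 1.42, 1.61, 2.06, 1.81 and 1.71 in DBN of replicates 1 to 5 and at 2.93, 2.87, 3.18, 2.999 and 2.96 in BN. Every DBN array was below every BN array and below the CTL range of 2.70 to 3.15. BORA was thus reduced to 41.6% of its bystander level (log2 difference -1.27, SE 0.11, limma adjusted p = 0.00793).

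AURKA, which encodes Aurora A kinase, was at 5.13, 5.31, 5.75, 5.43 and 5.71 in DBN and at 6.53, 6.25, 6.53, 6.39 and 6.34 in BN. Replicates 3 and 5 of DBN were the highest of their group but still below every BN array. The difference was -0.94 (SE 0.133, limma adjusted p = 0.062), or 52.0% of the BN level. AURKAP1, a pseudogene copied from the AURKA transcript, fell alongside it by 0.86 (SE 0.11, limma adjusted p = 0.0476), and since the 2 features may bind each other's transcripts they count as uncertain separate evidence.

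CCNF, an F-box protein that directs mitotic and replication proteins to degradation, was at -0.59, -0.55, -0.18, -0.21 and 0.60 in DBN and at 1.19, 0.79, 1.22, 0.90 and 1.04 in BN. DBN of replicate 5 was close to the BN range, and its pair had the smallest difference, -0.444, where the largest was -1.77. Over the 5 pairs the difference was -1.21 (SE 0.179, limma adjusted p = 0.0727). FAM83D, which takes casein kinase 1 to the mitotic spindle, was between 3.77 and 4.60 in DBN and between 5.15 and 5.64 in BN, a difference of -1.21 (SE 0.114, limma adjusted p = 0.0105).

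PLK1, the kinase that BORA and Aurora A act on, had 3.33, 2.51, 2.85, 2.88 and 3.52 in DBN and 3.89, 3.36, 3.76, 3.48 and 3.73 in BN. It was lower in 5 of 5 pairs, but the highest DBN array exceeded the lowest BN array, and the difference of -0.62 (SE 0.131) did not pass the thresholds (limma adjusted p = 0.368). Another, dimmer PLK1 feature had -0.47 and was lower in 4 pairs. The whole list of 22 genes had 16 tested, with 14 lower in DBN and a median difference of -0.47, where over all 10409 genes tested, taken by 1 feature each, the median was -0.014 and 56.3% were lower. Among its 6 members that varied too little over the 50 arrays to be tested, CDC25B had a difference of -0.16 and CDK1 of -0.01, while TPX2, the activator of Aurora A on the spindle, had -0.50 (limma adjusted p = 0.495 without the variation filter).

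**Figure D2:**
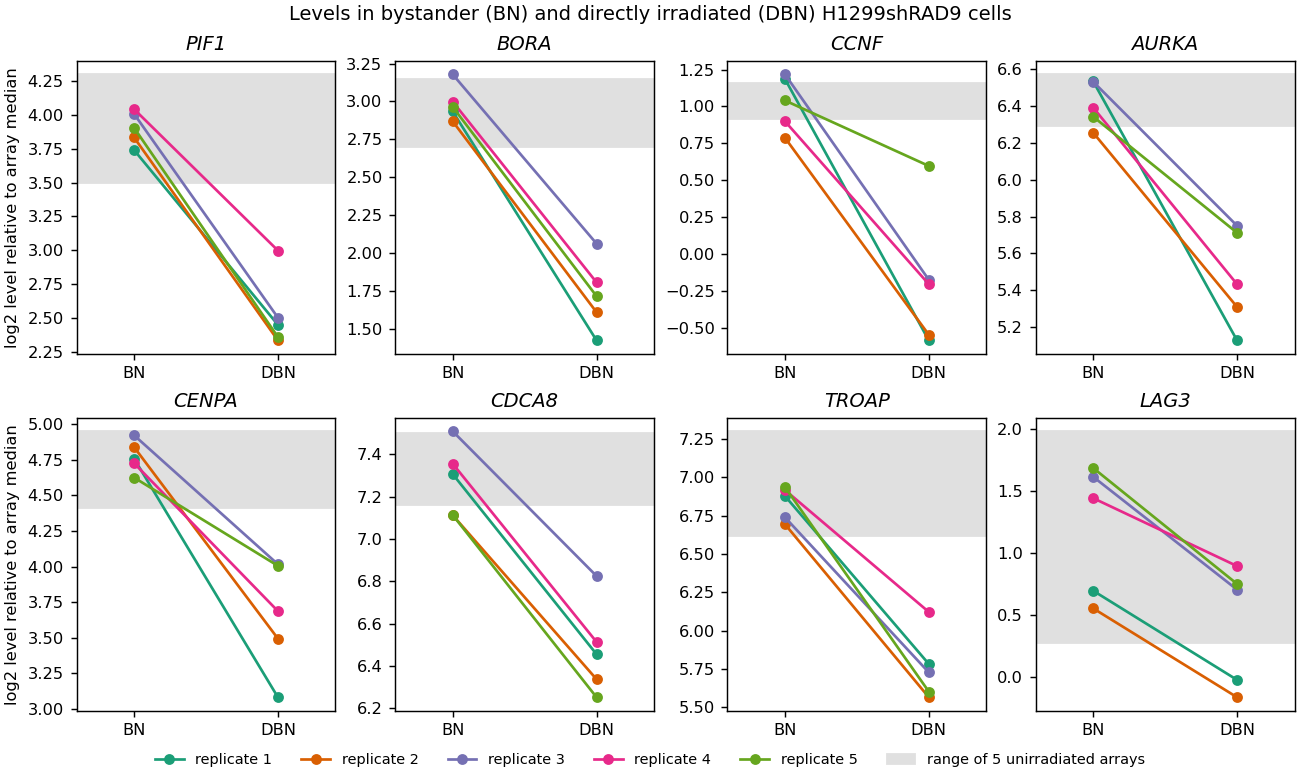
Log2 level relative to the array median (y axis) of 8 genes in BN and DBN of H1299shRAD9. Lines join arrays of the same replicate number, and the grey band is the range of the 5 unirradiated arrays. All lines fall, from bystander levels within or near the band to lower DBN levels, with the shallowest slope for replicate 5 of CCNF.

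The centromere and kinetochore list had 19 genes tested of 31, and all 19 were lower in DBN, with a median difference of -0.26. Of these, 3 fell: CENPA, HJURP and CDCA8. CENPA, the histone H3 variant that marks centromeres, was at 3.08, 3.49, 4.02, 3.69 and 4.01 in DBN and at 4.76, 4.84, 4.92, 4.73 and 4.63 in BN. The BN arrays were tightly grouped (SD 0.113), whereas DBN spread more widely (SD 0.39). The difference was -1.12 (SE 0.159, limma adjusted p = 0.062). HJURP, the chaperone that deposits CENPA, was between 6.35 and 6.69 in DBN and between 7.17 and 7.50 in BN, a fall of 0.80 (SE 0.121, limma adjusted p = 0.0791). CDCA8, the borealin subunit of the Aurora B complex, was between 6.25 and 6.83 in DBN and between 7.11 and 7.51 in BN, and its pairs differed by between -0.68 and -0.86. It fell by 0.80 (SE 0.103, limma adjusted p = 0.0476). SGO2, which protects cohesin at centromeres, had -0.70 in 5 of 5 pairs without passing (limma adjusted p = 0.468). The list's median was below 0 in 4 of the 5 pairs, where the other mitotic lists had 5 of 5.

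For spindle assembly and cytokinesis all 22 genes tested of 29 were lower in DBN, with a median of -0.46, and 4 fell. TROAP, a spindle and adhesion protein, was at 5.78, 5.57, 5.73, 6.12 and 5.60 in DBN and at 6.88, 6.69, 6.74, 6.92 and 6.94 in BN, a difference of -1.07 (SE 0.117, limma adjusted p = 0.0224). Another TROAP feature, nearer the start of the gene, had a mean difference of -0.176 and was lower in 4 pairs, so the features disagreed in size. PSRC1, a microtubule-binding protein of the spindle, was between 3.17 and 3.51 in DBN and between 4.15 and 4.43 in BN (difference -1.04, SE 0.115, limma adjusted p = 0.0224). CKAP2, which stabilises spindle microtubules, fell by 0.82 (SE 0.105, limma adjusted p = 0.0476), and its other feature on chromosome 13 had -0.811 in 5 of 5 pairs. CDCA2, which takes a phosphatase to the chromosomes of anaphase, fell by 0.84 (SE 0.116, limma adjusted p = 0.0607).

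The mitotic kinesins, motors of the spindle and the cleavage furrow, had no gene that passed, but all 10 tested of 13 were lower in DBN and their median of -0.52 was the lowest of the 26 lists. CENPE, the kinetochore motor, was at 3.72, 3.88, 4.15, 3.91 and 3.98 in DBN and at 4.65, 4.57, 4.61, 4.61 and 4.40 in BN, with no overlap (difference -0.64, SE 0.118, limma adjusted p = 0.286). KIF14 had -0.56 and KIFC1 -0.64, also in 5 of 5 pairs and without overlap (limma adjusted p = 0.316 for each). Over the 4 mitotic lists together, 67 of 95 genes were tested, 65 were lower, 43 had an unadjusted p under 0.05 in that direction and 11 passed both thresholds. The 27 that were above background but varied too little to be tested had a median difference of -0.18, with 24 lower. The lists overlap in biology and their genes share cells and arrays, so these counts describe the set and are not independent results.

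Of the 17 features, 6 were outside the mitotic lists or were the dimmer feature of a listed gene. PIF1, a helicase that unwinds DNA at telomeres and stalled forks and stood in the DNA repair list, had the largest fall of all. Its levels were 2.45, 2.33, 2.50, 2.998 and 2.36 in DBN and 3.74, 3.83, 4.01, 4.04 and 3.91 in BN. All DBN arrays were below the CTL range of 3.5 to 4.3, and all BN arrays were within it. PIF1 was at 38.5% of its bystander level (difference -1.38, SE 0.119, 95% interval -1.65 to -1.11, limma adjusted p = 0.00793). None of the other DNA repair genes passed, with DCLRE1C at -0.21 and RAD54B at -0.17.

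The feature A_33_P3404221 (chr1:68944584-68944643, minus strand, hg19) had no gene in the array annotation. It was at -1.81, -1.30, -1.33, -0.67 and -1.82 in DBN and at -0.22, 0.01, -0.55, 0.18 and 0.05 in BN (difference -1.28, SE 0.173, limma adjusted p = 0.059). The groups came nearest at the DBN array of replicate 4 and the BN array of replicate 3, without overlap. The nearest features on the array, 3607 and 4772 bases away on the same strand, belonged to DEPDC1 and had mean differences of -0.532 and -0.583.

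FAM110A, a centrosome and spindle pole protein, fell by 0.75 (SE 0.103, limma adjusted p = 0.059), with pairs between -0.68 and -0.84. G2E3, a ubiquitin ligase named for its peak in G2 and M phase, fell in a dim feature by 0.78 (SE 0.121, limma adjusted p = 0.0922), and its brighter feature had -0.579 in 5 of 5 pairs without passing. LAG3, an inhibitory receptor of lymphocytes, was at -0.02, -0.16, 0.70, 0.89 and 0.75 in DBN and at 0.70, 0.55, 1.61, 1.44 and 1.68 in BN. Here the groups overlapped, since replicates 1 and 2 were low on both surfaces. The difference of -0.76 (SE 0.112, limma adjusted p = 0.0705) rested on the pairing by replicate number.

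Mean levels on the bystander surface were close to those of unirradiated cells. For all 17 features the BN mean lay within the range of the 5 CTL arrays, with BN minus CTL between -0.16 and 0.12, although single BN arrays lay outside that range for some, as did 3 of 5 for CKAP2. For 15 features every DBN array was below every CTL array. The exceptions were FAM110A and LAG3. CTL did not enter the fit behind these calls, and the values are a description. Neither count against CTL was made over all features tested, so no background share is known for them. The median of the 17 differences within each pair was -1.10, -0.944, -0.78, -0.905 and -0.934 for replicates 1 to 5. The 4 pairs that shared a slide and the pair on different slides gave like values for most of them, such as -1.34 and -1.55 for PIF1 and -1.27 and -1.25 for BORA, and values more than 1.5 times apart for CCNF (-1.40 and -0.444), CENPA (-1.24 and -0.619), AURKA (-1.02 and -0.629) and A_33_P3404221 (-1.13 and -1.87).

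Promoters are shown for the genes that fell and whose listed promoter held the letters of both TTTGAA and CCAAT, so that it can be seen where they lie. RefSeq (GRCh38.p14) promoters, from 250 bases before to 50 after the start of transcription, were listed for 10 of the 16 genes. The letters TTTGAA, read on both strands, occurred in 7 of the 10, against 15.4% of all 27303 promoters of the same length and 10.1% of the 6860 promoters of tested genes. CCAAT, read on both strands, occurred in 8 of the 10, against 35.7% and 35.8%. The 7 were PIF1, BORA, CDCA8, CENPA, CCNF, HJURP and G2E3, and all but G2E3 also held CCAAT, a combination found in 6.08% of all promoters and 4.04% of those of tested genes. GGGCGG (the GC box) was in 9 of 10, against 44.6% of all and 66.4% of tested genes' promoters, and ACGTG in 1 of 10, against 21.6 and 26.0%. In PIF1, CDCA8 and CENPA the first T of TTTGAA lay 20, 23 and 18 bases before the start. In CDCA8 the letters TTTGAA share their final A with the A of a CCAAT on the other strand (ATTGG). These are matches of letters, with no test, and 10 genes are few. The 180 bases before the start are given 5′ to 3′ on the strand of the gene, with TTTGAA and CCAAT or ATTGG in capitals.

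PIF1, chr15:64825648-64825827, minus strand: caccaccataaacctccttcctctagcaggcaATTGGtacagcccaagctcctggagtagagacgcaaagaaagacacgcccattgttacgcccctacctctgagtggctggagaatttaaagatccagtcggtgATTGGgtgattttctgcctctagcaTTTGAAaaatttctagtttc
BORA, chr13:72727743-72727922, plus strand: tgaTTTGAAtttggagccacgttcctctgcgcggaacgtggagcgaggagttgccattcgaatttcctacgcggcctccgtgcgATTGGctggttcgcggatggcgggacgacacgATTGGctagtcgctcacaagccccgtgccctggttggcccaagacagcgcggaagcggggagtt
CDCA8, chr1:37692336-37692515, plus strand: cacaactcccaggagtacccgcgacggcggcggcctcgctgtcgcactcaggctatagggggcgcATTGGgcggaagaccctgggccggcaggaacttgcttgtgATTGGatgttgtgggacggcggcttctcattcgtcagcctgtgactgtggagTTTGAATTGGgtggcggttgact
CENPA, chr2:26785876-26786055, plus strand: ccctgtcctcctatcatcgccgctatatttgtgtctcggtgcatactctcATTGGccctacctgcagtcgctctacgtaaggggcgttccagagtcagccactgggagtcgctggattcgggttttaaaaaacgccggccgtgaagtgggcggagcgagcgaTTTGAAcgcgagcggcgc
CCNF, chr16:2429267-2429446, plus strand: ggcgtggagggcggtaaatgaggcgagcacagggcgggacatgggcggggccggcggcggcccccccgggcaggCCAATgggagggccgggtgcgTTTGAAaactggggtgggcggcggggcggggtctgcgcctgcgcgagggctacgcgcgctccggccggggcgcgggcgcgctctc
HJURP, chr2:233854536-233854715, minus strand: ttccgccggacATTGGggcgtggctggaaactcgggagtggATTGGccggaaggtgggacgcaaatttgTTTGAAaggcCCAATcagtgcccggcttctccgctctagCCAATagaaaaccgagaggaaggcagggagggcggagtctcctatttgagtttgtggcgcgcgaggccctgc

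Outside mitosis the cell cycle lists held no gene that passed. Of 54 genes for S phase and replication, 29 were tested and 25 were higher in DBN, none past the thresholds, with a median difference of 0.05. The 25 members that varied too little to be tested had a median of 0.0066, with 11 lower, and with normexp background correction 11 of 27 tested were lower. CCNE2, the cyclin of S phase entry, had 0.30 (SE 0.124), CDC6, which licenses origins, 0.56 (SE 0.251) and E2F1 0.15 (SE 0.107), each with a limma adjusted p of 1. The CDC6 pairs ran from -0.0548 to 1.88, with DBN of replicate 2 at 0.937 and the other DBN arrays between -0.937 and -0.803. The scale matters for shifts as small as the list median. Over all features the median was -0.015, and it lay between -0.033 and 0.0033 under the other scalings. CDK inhibitors were divided. CDKN2C, which blocks CDK4 and CDK6, had -0.54 in 5 of 5 pairs (limma adjusted p = 0.492), CDKN2D had -0.42 in 5 of 5 pairs (0.671 by the same adjustment), and CDKN1A, an inhibitor of several cyclin kinases, had 0.25 with an SE of 0.276. For G1 cyclins and the RB family 6 genes were tested, with a median of -0.071, CCND2 at 0.19, CDK6 at -0.12 and E2F5 at -0.17. The 3 tested genes of the clamp and its checkpoint, RAD17, ATR and ATM, had -0.18, -0.20 and -0.03. The replication-dependent histones, made in S phase, had 23 genes tested and a median of 0.0089, with H2AC25 at -0.26, H4C8 at 0.16 and H4C5 at 0.15.

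No gene of the stress and signalling lists passed the thresholds. In the list of inflammatory mediators linked to bystander signalling, 12 of 15 tested genes were higher in DBN, with a median of 0.14 that was above 0 in each of the 5 pairs (0.11 to 0.26). RELB, a subunit of NF-kB, had 0.44 (SE 0.12) and LIF, a cytokine of the interleukin 6 family, 0.37 (SE 0.107), each in 5 of 5 pairs (limma adjusted p = 0.73 and 0.83), and BIRC3 had 0.30. The integrated stress response had 23 of 32 higher, a median of 0.048, and JDP2, CHAC1 and NUPR1 at 0.36, 0.46 and 0.25. Immediate early genes went both ways, with FOS at -0.62 (limma adjusted p = 0.779), NR4A1 at 0.56, JUNB at 0.48 and EGR1 at -0.14. Among TGF-beta and BMP targets 13 of 19 were lower, with PMEPA1 at -0.48 (limma adjusted p = 0.568), TGFBI at -0.33, BAMBI at 0.32, ID1 at -0.13 and SMAD6, well above background on 3 DBN and 4 BN arrays, at -0.76 (SE 0.312).

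HMOX1, the heme oxygenase that marks oxidative stress, was higher in 5 of 5 pairs by 0.36 (SE 0.133, limma adjusted p of 1), although its level ranged from 5.05 to 7.55 between dishes, with OSGIN1 at 0.23 and GCLM at -0.12. The feature higher in DBN with the smallest p was that of BIK, a BH3-only protein that promotes cell death, at 0.36, 0.43, 0.66, -0.07 and 0.15 in DBN and at -0.30, 0.00, -0.22, -0.44 and -0.58 in BN. It was higher in each pair but the groups overlapped, and it did not pass (difference 0.61, SE 0.119, limma adjusted p = 0.304). PMAIP1 and HRK, of the same family, had 0.15 each. Interferon-stimulated genes had a median of 0.018, with IFIT1 at -0.45 (limma adjusted p = 0.762), IFIT2 at 0.23 and IRF1 at 0.25. HIF1 targets had 0.015, with LDHA at -0.20, KDM3A at -0.15 and VEGFA at 0.18. The array places the LDHA feature at chr9:14921817-14921876 (minus strand, hg19), and which transcripts it reads was not tested. Heat shock and unfolded protein genes (HSPA1A 0.16, HSPA1B 0.12, HSPB1 0.14), tRNA synthetases (EPRS1 -0.11, YARS1 -0.11, FARSB -0.07), connexins and pannexins (PANX2 -0.60 with an SE of 0.451, GJA3 -0.18, GJC1 -0.04) and housekeeping genes (TFRC -0.10, ACTB -0.10) also held no gene that passed. MMP1, a collagenase, had 0.10 (SE 0.131) and the transcription factor SOX4, well above background on 3 of 5 arrays of each group, 0.10 (SE 0.403).

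**Figure D3:**
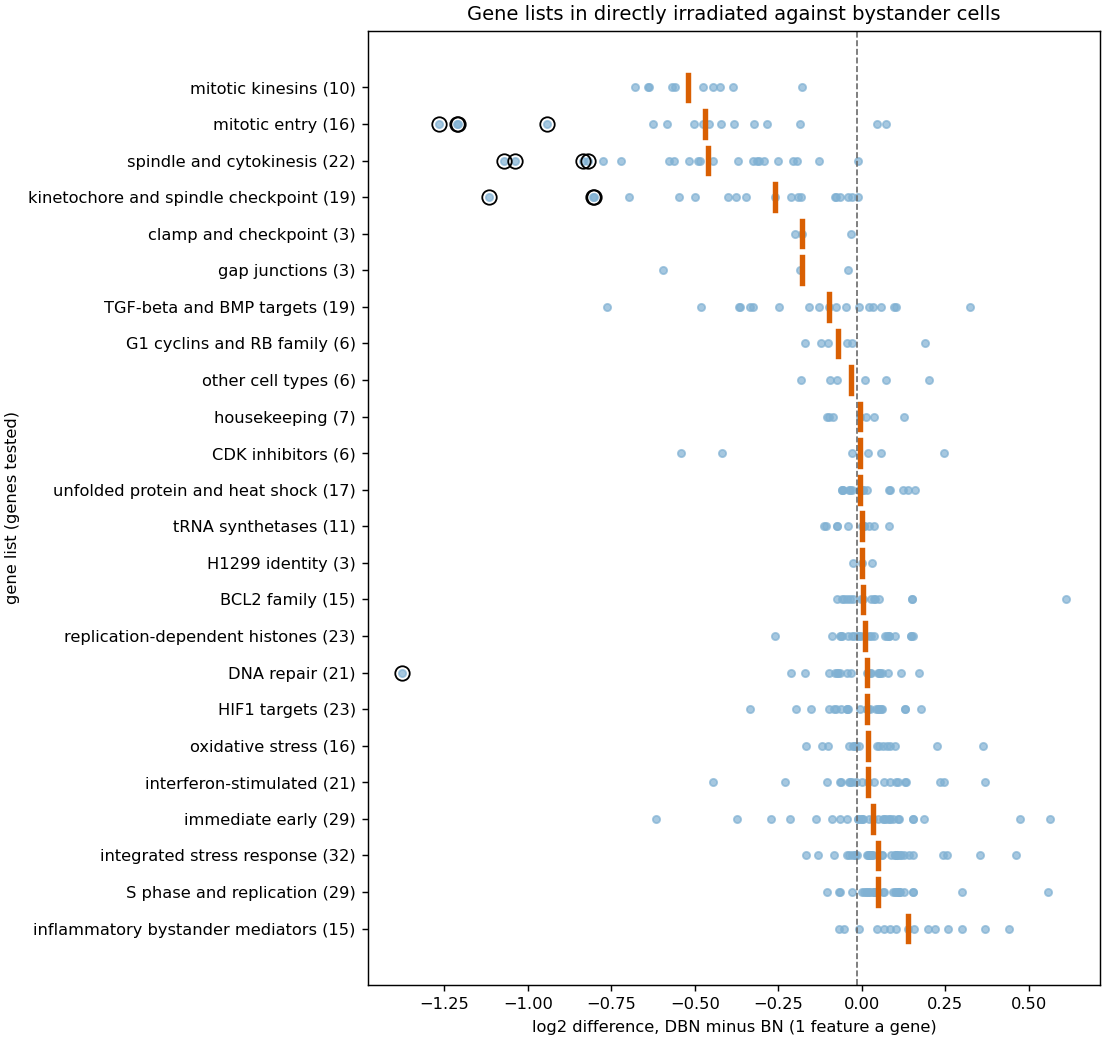
Log2 difference between DBN and BN of each tested gene (blue points, x axis) by gene list (y axis, number of genes tested in brackets), with the median of each list as an orange bar. Open circles mark genes that passed both thresholds, and the dashed line is the median of all genes, -0.014. The 4 mitotic lists stand to the left, with medians from -0.26 to -0.52, and PIF1 stands alone in the DNA repair list.

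The same surfaces were then compared in dishes of H1299shRAD9 whose bystander cells had responded. DBP and BP are other arrays from other dishes, with no control in common with DBN and BN. All 17 features were lower in DBP than in BP, in each of the 5 responding pairs, with differences from -0.68 to -1.52. Of them, 14 passed both thresholds there too. How many of all features tested were lower in every responding pair was not counted. In responding dishes 17 features passed (0.140% of those tested), all lower and none higher. Thus 14 were shared, 82.4% of either list, and the 3 not shared among the nonresponding calls were CKAP2, FAM110A and G2E3, at -0.73, -0.68 and -0.75 in responding dishes. The 3 that passed in responding dishes alone, named after their values were seen, were features of GAS2L3, CDKN2C and NDE1, at -0.77, -0.54 and -0.23 in nonresponding dishes.

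The difference between responding and nonresponding dishes was tested as an interaction, and 0 of 12171 features passed (0% in either direction, limma with the dish as a block, smallest adjusted p of 1), with 126 at an unadjusted p under 0.05. For PIF1 the surface difference was -1.38 in nonresponding and -1.34 in responding dishes, which differed by -0.034 with a 95% interval from -0.38 to 0.32. For BORA the interval ran from -0.46 to 0.11, for AURKA from -0.49 to 0.23 and for CCNF from -0.70 to 0.32. These intervals do not show that the dishes were alike, but their bounds lay nearer 0 than the falls themselves. LAG3, with -0.76 and -1.05, had the smallest interaction p of the 17 (limma, unadjusted p = 0.128, adjusted p of 1). Differences in the 4 mitotic lists stood at medians of -0.47, -0.52, -0.26 and -0.46 in nonresponding and -0.42, -0.41, -0.27 and -0.39 in responding dishes, in the order entry, kinesins, kinetochore and spindle. CDKN1A had 0.25 (SE 0.276) in nonresponding and 0.91 (SE 0.424) in responding dishes, and the interaction of -0.66 (SE 0.571) did not pass (limma adjusted p of 1).

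In nonresponding dishes of parental H1299, DBN against BN passed no feature (0% in either direction, limma), with 441 features at an unadjusted p under 0.05 and a smallest adjusted p of 0.116. All 17 features were nevertheless lower in DBN in each of the 5 H1299 pairs, by between 0.76 and 1.85. All 17 had an unadjusted p under 0.05. How many of all features tested were lower in every H1299 pair was not counted. The fits differed in precision, as the median SE over the 17 features was 0.116 in H1299shRAD9 and 0.204 in H1299. PIF1 had -1.85 in H1299 (limma adjusted p = 0.116) and BORA -1.30. The interaction of surface and cell line passed 0 of 12171 features (0% in either direction, limma, smallest adjusted p of 1), with 185 at an unadjusted p under 0.05. For PIF1 the fall was 0.47 larger in H1299, with an interval from 0.016 to 0.93. Its limma adjusted p was 1 (unadjusted p = 0.0436). For BORA the interval ran from -0.56 to 0.62 and for CCNF from -0.74 to 1.5, which takes in a difference as large as the fall itself for CCNF. Passing in H1299shRAD9 and not in H1299 is therefore not shown to be a difference between the lines. As a description, the medians were apart for the replication-dependent histones, at 0.0089 in H1299shRAD9 and -0.54 in H1299, and for the integrated stress response, at 0.048 and -0.12, with no gene of either passing the interaction. For S phase and replication the median was 0.05 in H1299shRAD9 and -0.1 in H1299, where 22 of the 29 tested genes were lower in DBN. The H1299 histone values were imprecise, with an SE of 0.491 for H4C8 and 0.639 for H4C5. Of the H1299 DBN arrays, replicate 1 had 83.36% of probes well above background and replicate 2 had 201 saturated probes and a 5′ to 3′ index of -1.64, and their part in these values was not tested.

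**Figure D4:**
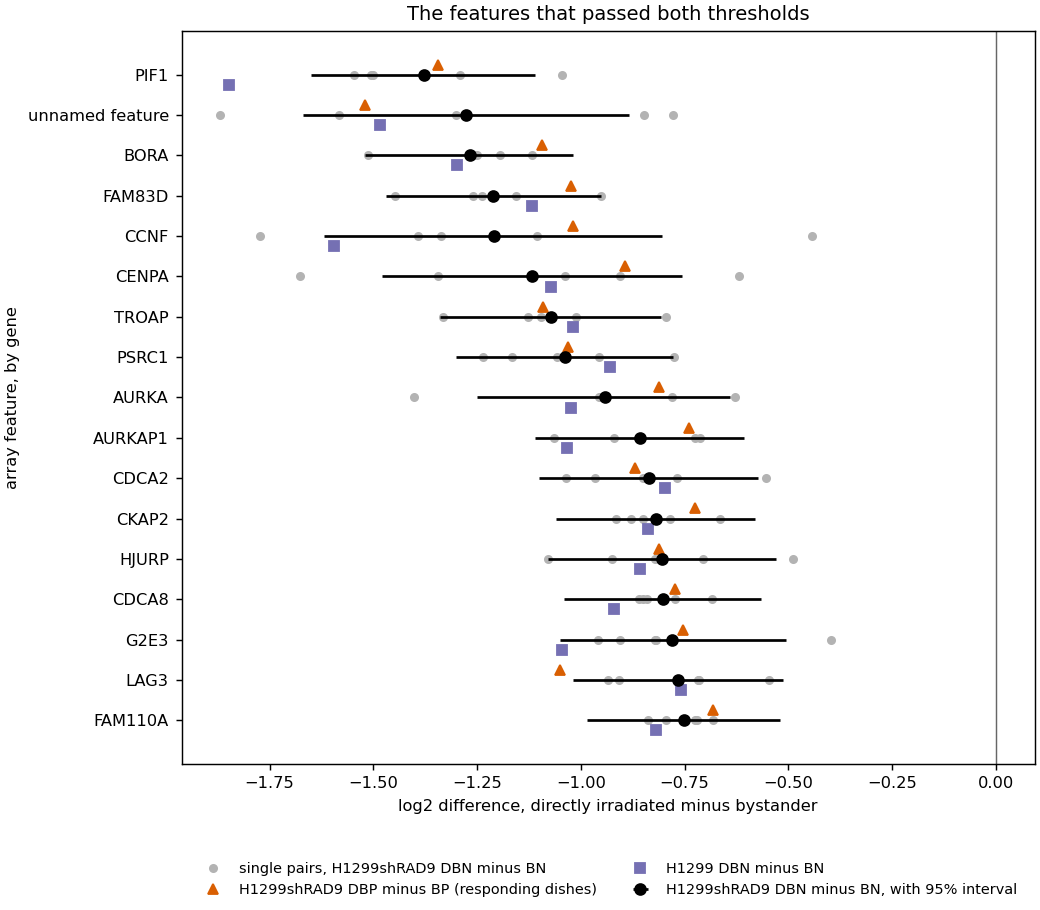
Log2 difference between directly irradiated and bystander cells (x axis) for the 17 features that passed (y axis). Black points with bars are the H1299shRAD9 DBN minus BN estimate and its 95% interval, grey points its 5 pairs, orange triangles the responding dishes and purple squares the nonresponding dishes of H1299. Every estimate lies below 0, from -0.68 to -1.85.

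The calls were sensitive to the number of pairs. With 1 pair left out they fell to between 3 and 7, PIF1, BORA and FAM83D being kept in each such fit. Without the replicate block, 9 of the 17 passed. The 17 features were lower in DBN under every alternative that measured them, 271 values from -0.403 to -1.46. Since each was lower in every pair, fits that left out a pair, the block or a filter could not have turned the sign.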

How the data were processed

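RNA of 50 samples, 5 per group, was hybridised to 1-color Agilent human arrays, and 10 of them form the comparison. Per the file headers, Feature Extraction 11.5.1.1 made the deposited intensity values (background-subtracted processed signals, probe positions on hg19). The deposited log2 table, median normalized per array by the authors, was used as an alternative. Here log2 of the processed signal minus the array median was averaged over spots of a probe. After the study's methods, features marked not above background or as outliers on over 25% of 50 arrays were left out, as were those that differed from their median by 1.3-fold on under 20% of arrays, which left 12171 of 34127. DBN minus BN was fitted with limma 3.58.1 (R 4.3.3), with the dish as a block, at p under 0.006 and an adjusted p under 0.10. The methods name a paired random-variance test, run as an alternative. Interactions used the dish as a block over 20 arrays. The scripts were tested on simulated data.

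The paper states that RNA was also taken from the irradiated partner of each chosen bystander sample. The labels give only replicate numbers, and arrays of equal number were taken to be the surfaces of the same dish. Deviations from the group means correlated within every pair (0.326 to 0.727, mean 0.56), but other combinations of arrays reached 0.704 (mean -0.134), and 3 of 5 DBN arrays correlated best with their own number. Array numbers limit the precision, with 5 pairs. The p-values of the paired fit measure how the DBN minus BN differences spread over dishes of 1 cell line. The paper reports that independent stable clones of H1299shRAD9 were interchanged, and the labels do not name the clone of a dish. The spread may thus include clones. Probes were named through RefSeq by accession (25771), symbol (2207) or older symbol (499), and 5650 were not named. A gene with several features was given by the brightest of those tested. Where none was tested, the brightest above background was taken. Genes were named by rule: the 15 largest falls that passed, up to 4 members of each list that passed or the 3 with the smallest p, RAD9A, and a set of genes of interest to the study. FAM110A and LAG3, beyond the 15, were added after their values were seen, as were further list members and markers. The members and lists were chosen with earlier results of these data known. Some items are not reported here. Alternatives were the block, scaling, background, filters, table, test, slide and each replicate left out.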

Additional observations from a re-analysis of the deposited data

Results flagged for a closer look

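Among 59 groups of 5 values checked for a value far from the other 4 (Dixon's test at the 95% level, which chance passes in about 1 group in 20), 4 had one. The DBN level of PIF1 in replicate 4 was 2.998 (3 when rounded), above the other DBN arrays, though still below every BN array. The difference of G2E3 in the pair of replicate 3 was -0.396, the smallest of its 5. The DBN array of replicate 1 had 58.51% of probes well above background, the lowest of the 10 arrays. The BN array of replicate 3 had a 5′ to 3′ index of -1.31, the highest of the 10 arrays. The index is the median over 3432 genes with several features of the log2 level at the 5′-most feature minus that at the 3′-most. The part of these arrays in the results was not tested, and leaving each out with its pair is covered in the processing alternatives.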

How the results depend on the processing

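Of the processing alternatives, none turned the direction of any of the 17 features. Several could not have done so, since each feature was lower in every pair. The number that passed depended on the setting. It was 3 with the positive-and-significant background mark in place of the well-above-background mark. It was 11 where a feature needed 4 of the 5 arrays in 1 group well above background. With all 5 H1299shRAD9 groups in one fit it was 53 (52 lower, 1 higher). With 1 replicate left out it was 3 to 7 (3, 3, 4, 4 and 7 without replicates 1 to 5). Without the replicate block, that is with the pairing ignored, 9 passed. The remaining settings gave between 16 and 18. The interaction with responding dishes had 1 call in the authors' table and 0 otherwise, and that with H1299 had 0 throughout. PIF1, BORA and FAM83D passed under all 16 alternatives. The cause of these changes was not tested.

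Differences that changed sign belonged to genes that did not pass. With normexp ZEB1 had -0.0294, KRT8 -0.0304 and SOX4 -0.0924. With the slide as a random block KRT8 had -0.0616, ATM 0.062 and SOX4 -0.20, and in the authors' table SOX4 had -0.725. With 1 replicate left out the ranges were -0.0119 to 0.576 for CDKN1A, -0.0451 to 0.00176 for CDH2, -0.0931 to 0.0982 for ZEB1, -0.086 to 0.147 for KRT8, -0.24 to 0.0975 for ATM, -0.913 to 0.00778 for PANX2, -0.376 to 0.124 for GJA3, -0.0656 to 0.0141 for GJC1, -0.28 to 0.0308 for CDH5, -0.224 to 0.0237 for PTPRC, -0.258 to 0.0384 for YARS1, -0.118 to 0.0294 for FARSB, -0.254 to 0.0176 for EGR1 and -0.316 to 0.488 for SOX4. Signal over background limits dim features such as those of SOX4, GJA3 and SMAD6, which were not well above background on every array.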
